A study of Mus musculus with 4 samples.

Results

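The 7 genes described here encode phosphatases that act on phosphoinositides or on phosphotyrosine: Inpp4b, Inpp4a, Inpp5d, Inppl1, Ptpn13, Ptpn22 and Ptpn6. They were followed, out of 26421 gene names listed in the 2 single-cell count tables, across bone marrow αLPs (Lin- CD127+ FLT3- LPAM-1+ lymphoid progenitors, which include the precursors of innate lymphoid cells). The cells came from C57BL/6J mice that were wild type (WT) or carried a CRISPR-Cas9 deletion of the tandem super-enhancers far downstream of Gata3 in all cells (G3SEKO). No treatment was given to either genotype in the sources used here, the mice were young adults of both sexes, and cells of several mice of a genotype were combined in each of 2 experiments. The study had named Inpp4b and Ptpn13 as candidate GATA3 targets because they were higher late in ILC2 development, were lower in G3SEKO ILC2s and had GATA3 bound at chromatin that opens in ILC2s when the super-enhancers are present. Both were thus selected on measured levels of these same cells, so their values along those contrasts are given as a description without a test. In the study, knockdown of either gene in transferred bone marrow did not significantly affect ILC2 development, and the authors called the suppression incomplete. The other 5 genes encode related phosphatases, of which only Inpp4a is a paralog of Inpp4b, and the question was whether they moved as Inpp4b and Ptpn13 did.

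Phosphatidylinositol 3-kinase (PI3K) makes the membrane lipid PI(3,4,5)P3, which recruits Akt and other kinases downstream of cytokine and antigen receptors. SHIP-1 (Inpp5d, largely confined to blood cells) and SHIP-2 (Inppl1) remove the 5-phosphate to give PI(3,4)P2, and INPP4A and INPP4B then remove the 4-phosphate to give PI(3)P. The protein tyrosine phosphatases of the set act on proteins instead: SHP-1 (Ptpn6) is recruited to inhibitory receptors, PTPN22 dampens Src-family and ZAP-70 kinases in lymphocytes, and PTPN13 is a large non-receptor enzyme with several protein-interaction domains. Group 2 innate lymphoid cells (ILC2s) make IL-5 and IL-13, depend on GATA3, and carry the IL-33 receptor ST2, the product of Il1rl1.

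The genes lie on 6 chromosomes of the mouse genome (GRCm38, GENCODE M21 gene models). Inpp4b spans chr8:81342556-82127914 on the plus strand and Ptpn13 spans chr5:103425192-103598303 on the plus strand. Inpp4a (chr1:37299865-37410736, plus) and Inpp5d (chr1:87620312-87720507, plus) share a chromosome, whereas Inppl1 lies at chr7:101822632-101838229 (minus), Ptpn22 at chr3:103859795-103912247 (plus) and Ptpn6 at chr6:124720707-124738714 (minus). Because Inpp4b and Ptpn13 were both lower in G3SEKO cells, the 250 bases upstream of their RefSeq start sites (GRCm38.p6) are shown with those of Inpp5d, the member that held the letters of a GATA motif. The letters GATAA and GATAG, each with A or T directly before them, were searched on both strands, and capitals mark the match.
Inpp4b, chr8:81342312-81342561, plus strand: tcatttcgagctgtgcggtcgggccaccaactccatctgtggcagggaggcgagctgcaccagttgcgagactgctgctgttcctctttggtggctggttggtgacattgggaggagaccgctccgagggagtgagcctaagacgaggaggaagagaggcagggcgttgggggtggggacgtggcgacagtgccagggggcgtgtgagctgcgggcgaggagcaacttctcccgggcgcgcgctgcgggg
Ptpn13, chr5:103424942-103425191, plus strand: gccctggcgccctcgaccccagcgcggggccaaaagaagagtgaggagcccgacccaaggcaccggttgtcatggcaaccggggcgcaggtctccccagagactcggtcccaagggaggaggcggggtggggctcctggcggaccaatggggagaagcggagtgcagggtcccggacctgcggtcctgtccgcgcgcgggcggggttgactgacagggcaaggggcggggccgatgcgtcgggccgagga
Inpp5d, chr1:87620062-87620311, plus strand: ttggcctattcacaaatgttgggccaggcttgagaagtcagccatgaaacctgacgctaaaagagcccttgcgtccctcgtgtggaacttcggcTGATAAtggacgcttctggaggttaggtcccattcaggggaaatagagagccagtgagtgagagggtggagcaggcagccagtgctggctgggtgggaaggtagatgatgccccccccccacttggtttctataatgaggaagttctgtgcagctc
Of 32851 mouse promoter windows of 250 bases, 26.5% held at least 1 of these letter strings. Among the windows listed for the 7 genes, 1 match was found, in Inpp5d, starting 156 bases before the start site. The windows of Inpp4b (66.0% G or C) and Ptpn13 (72.4%) held none of these letters, which says nothing of GATA3 binding elsewhere in the genes.

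Cells were called by 1 hashtag antibody each and kept above the inflection point of the reads per cell given in the study's methods, with at most 10% mitochondrial reads and an Id2 level of at least 1 on the ln(1 + reads per 10000) scale. Experiment 1 kept 681 WT and 43 G3SEKO cells, and experiment 2 kept 5130 WT and 1159 G3SEKO cells, with median depths of 396198, 509911, 29677 and 42814 reads. Hashtag A0303 of experiment 2 was taken as G3SEKO by the rule for choosing the cells, although the deposited label lists it beside the WT tag and names none for G3SEKO. The experiments shared 11 barcode numbers. The deposited values were counts of reads, not of molecules, so that 1 strongly amplified cell can carry a sum, and all intervals cover counting error only. Levels are given as reads in 1000000 of the summed cells (CPM), and they were not compared between genes, since the counts carry no length.

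Cells were divided by the same scale at a limit of 1 into an ST2+ gate (Il1rl1, ILC2s), a Zbtb16+ gate (Il1rl1-low, innate lymphoid cell precursors, ILCPs, with the early ILC2-committed precursors, which still express Zbtb16), an Icos+ Zbtb16-low gate (where late ILC2-committed precursors lie) and the triple-low rest. The sum of 10 ILC2 markers set the gates little apart (4389 and 4449 CPM in WT ST2+ cells, of which Il1rl1, the gate's own gene, gave 1098 and 1363 CPM, and 3326 and 3818 CPM in WT Zbtb16+ cells). The 5 ILCP markers, of which Zbtb16 defines a gate, summed to 201 and 151 CPM in WT ST2+ cells and to 3858 and 4202 CPM in WT Zbtb16+ cells. The G3SEKO ST2+ gate held only 2 cells in experiment 1 and 50 in experiment 2, and in the latter the ILCP markers summed to 1687 CPM and the 5 LTi and ILC3 markers to 299 CPM (WT, 26.1 CPM). The 2 cells of experiment 1 held 2195 CPM of ILCP markers and 1900 CPM of 5 NK and ILC1 markers (WT, 6.75 CPM). Marker genes of other lymphocyte lineages were at 1 or above in 1 of these 2 cells and in 20% of the 50. Without such cells the ST2+ gate of experiment 2 gave 1122 CPM (WT) and 90.2 CPM (G3SEKO) of Inpp4b and 211 and 0.537 CPM of Ptpn13. In the triple-low gate of experiment 1, the 14 G3SEKO cells summed to 21467 CPM of 5 myeloid markers, against 12.1 CPM in WT, and the part of these cells in the values of that gate was not tested. Fewer cells of a kind and less RNA per cell cannot be told apart in such sums.

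Inpp4b was high in WT ILC2s and lower in G3SEKO cells in all 4 gates of both experiments. In WT cells of experiment 1 its level was 32.4 CPM in the Zbtb16+ gate, 194 CPM in the Icos+ Zbtb16-low gate, 311.8 CPM in the triple-low gate and 659.6 CPM in the ST2+ gate. In experiment 2 the same 4 levels were 132, 591, 913 and 1113 CPM. The order was therefore the same in both experiments, and ST2+ cells lay above Zbtb16+ cells by 3.71 ± 0.90 on the log2 scale (SD, n = 2 experiments).

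G3SEKO cells kept this order of gates in neither experiment, and only experiment 2 showed a rise from Zbtb16+ to ST2+ cells, smaller than in WT. Inpp4b stood at 8.92 CPM (Zbtb16+), 3.50 CPM (Icos+ Zbtb16-low), 92.7 CPM (triple-low) and 4.45 CPM (ST2+, 6 reads in 2 cells) in experiment 1, and 79.9% of the reads of the triple-low value came from 1 cell. In experiment 2 it stood at 47.1, 86.5, 79.4 and 129 CPM. The G3SEKO values of experiment 2 thus ranged over 47.1 to 129 CPM, whereas the WT values ranged over 132 to 1113 CPM. In the ST2+ gate of experiment 2 the WT level was 8.60 times the G3SEKO level, and in the Zbtb16+ gate it was 2.79 times.

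Ptpn13 was likewise lowest in WT Zbtb16+ cells and highest in WT ST2+ cells, and in experiment 2 the genotypes stood furthest apart in the ST2+ gate. WT levels were 2.79, 69.9, 52.7 and 148 CPM in the Zbtb16+, Icos+ Zbtb16-low, triple-low and ST2+ gates of experiment 1, and 21.7, 125, 167 and 209 CPM in experiment 2. G3SEKO levels were 0.852, 0.50, 0.473 and 0 CPM in experiment 1, and 3.61, 14.5, 11.2 and 0.390 CPM in experiment 2. No G3SEKO value exceeded the WT value of its gate and experiment. In the 50 G3SEKO ST2+ cells of experiment 2 a single Ptpn13 read was found, in 1 cell, against 31028 reads in 3548 WT cells, which gave a WT level 537 times as high (95% Poisson interval 96.3 to 21202). In experiment 1 the 2 G3SEKO ST2+ cells held no read, and the WT level was 66.7 times a floor of 3 reads (lower 95% Poisson limit 54.2).

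**Figure D1:**
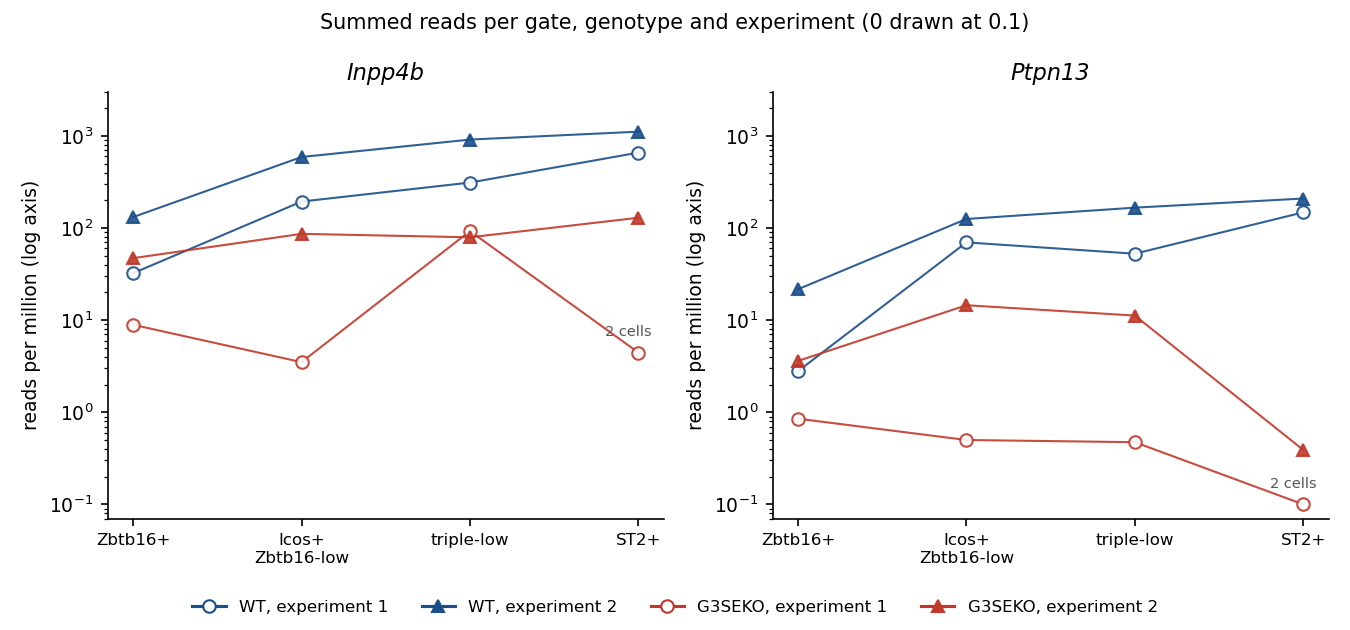
CPM of summed reads of Inpp4b (left) and Ptpn13 (right), on a log axis, in the 4 gates; blue is WT, red is G3SEKO, open circles are experiment 1 and filled triangles experiment 2, lines join the gates of 1 genotype and experiment, and a value of 0 is drawn at 0.1. WT levels are highest in ST2+ cells, up to 1113 CPM (Inpp4b) and 209 CPM (Ptpn13), and every G3SEKO point lies below the WT point of its experiment.

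Single cells were compared after depth was evened out. At full depth, 95% of the G3SEKO Zbtb16+ cells of experiment 1 had at least 1 Inpp4b read at a level of only 8.92 CPM, so a read at that depth was not taken as expression, and every cell was thinned to the lowest depth allowed in experiment 2. Thereafter Inpp4b was found in 78.6% of WT ST2+ cells of experiment 2 (2789 of 3548, exact interval 77.2 to 79.9%) and in 22.0% of G3SEKO ST2+ cells (11 of 50, 11.5 to 36%), whereas the unthinned shares were 86.4% and 34.0%. Thus a minority of G3SEKO ST2+ cells still held Inpp4b reads, and 33.4% of those reads came from 1 cell. Ptpn13 was found in 28.7% of WT ST2+ cells (27.2 to 30.2%) and in 0 of 50 G3SEKO cells, a count that allows a share of up to 7.11% (unthinned, 39.3% and 2%).

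In the Icos+ Zbtb16-low gate of experiment 2, 63.1% of WT and 16.5% of G3SEKO cells held Inpp4b after thinning, and 20.6% and 2.61% held Ptpn13. In the Zbtb16+ gate, 19.1% of WT (14.3 to 24.8%) and 13.6% of G3SEKO cells (10.3 to 17.5%) held Inpp4b, and these intervals overlapped. No cell type known to lack either gene was labelled, so a share from free RNA could not be set beside these. Among WT ST2+ cells, Ptpn13 reads were found in 29.7% of the cells with an Inpp4b read and 25.3% of those without in experiment 2, and in 34.0% and 21.7% in experiment 1. Ptpn13 reads were thus found in WT ILC2s with and without Inpp4b reads.

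Gata3 itself, which lies far upstream of the deletion, stood at 829 and 761 CPM in WT and 881 and 494 CPM in G3SEKO Zbtb16+ cells (experiments 1 and 2). In the Icos+ Zbtb16-low gate it stood at 1161 and 994 CPM (WT) and 507 and 438 CPM (G3SEKO). In the ST2+ gate it stood at 1387 and 1039 CPM (WT) and 211 and 294 CPM (G3SEKO). In the Zbtb16+ gate of experiment 1 the WT level of Inpp4b was thus 3.63 times the G3SEKO level, and the WT level of Gata3 was 0.941 times that of G3SEKO cells. In experiment 2 the WT levels in this gate were 2.79 times (Inpp4b) and 1.54 times (Gata3) those of G3SEKO cells.

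**Figure D2:**
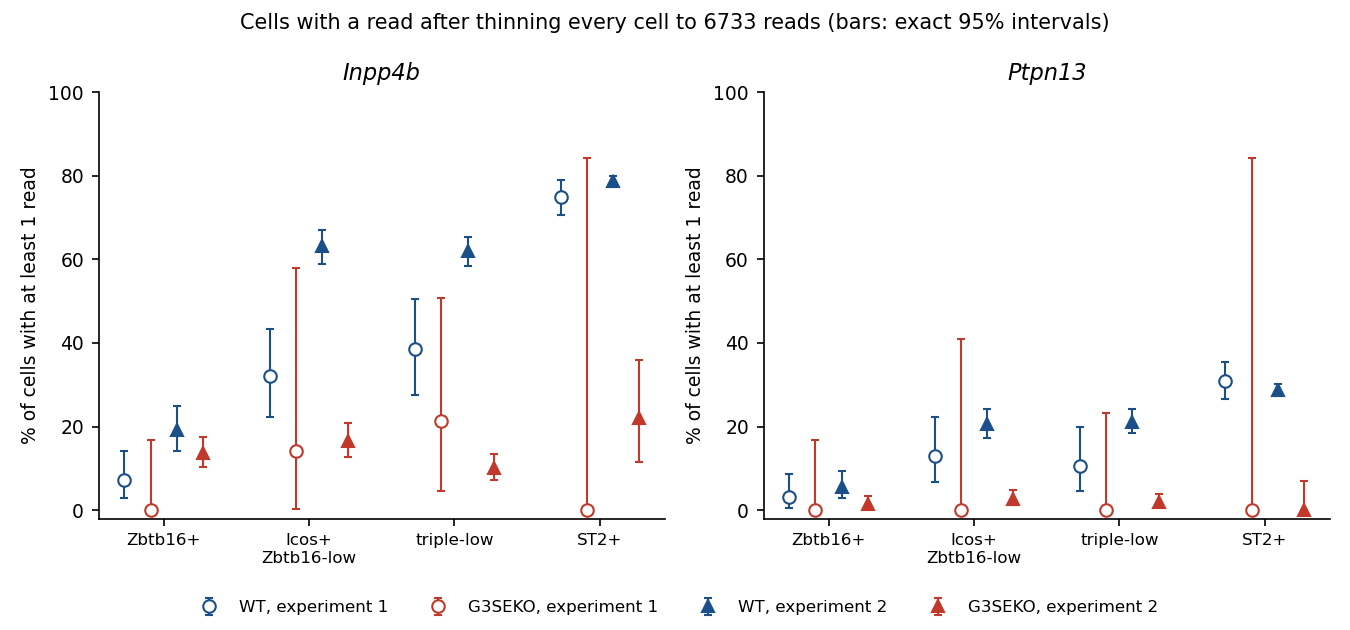
Share of cells with at least 1 read of Inpp4b (left) or Ptpn13 (right) after each cell was thinned to the lowest depth allowed in experiment 2, by gate; symbols as in the plot of levels and bars are exact 95% binomial intervals. In ST2+ cells of experiment 2 the shares are 78.6% and 22.0% for Inpp4b and 28.7% and 0% for Ptpn13, whereas the Zbtb16+ intervals of Inpp4b overlap.

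The 3 WT hashtags of experiment 1 allowed a look at the spread within a genotype. In the ST2+ gate they gave 607, 664 and 715 CPM of Inpp4b and 148, 124 and 172 CPM of Ptpn13. In the Zbtb16+ gate they gave 21.5, 51.3 and 22.2 CPM of Inpp4b, and the 3 G3SEKO hashtags gave 12.1, 3.16 and 3.31 CPM in 13, 2 and 5 cells. The hashtag groups of the 2 genotypes did not overlap for Inpp4b in this gate, which also held in this direction for 12.4% of 9347 genes at a mean of at least 10 CPM. Inpp4a did the same, with 15.5, 31.5 and 13.9 CPM in WT and 10.6, 10.7 and 3.05 CPM in G3SEKO cells. For Ptpn13 the hashtag groups did overlap there, with 0.958, 5.85 and 1.23 CPM in WT and 1.13, 0 and 0.509 CPM in G3SEKO cells.

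Next, the genotype was tested in the precursor gates with edgeR's quasi-likelihood test on the 4 sums per gate, with experiment as a term. In the Zbtb16+ gate, 0 of 16675 genes passed an adjusted p of 0.05 (0%), with 293 genes below an unadjusted p of 0.05, and DESeq2 called 20. With 2 experiments, the p-values measure only the spread between these sums. All 7 members passed the filter on low counts there, and none was called. The log2 difference of Inpp4b was -1.63 ± 0.36 (SE; adjusted p = 1.0 with edgeR) and that of Ptpn13 -2.12 ± 0.95 (adjusted p = 1.0 with edgeR), both lower in G3SEKO cells in 2 of 2 experiments. In experiment 2 alone, 2.89% of 9629 genes at a mean of at least 10 CPM were 2-fold or more lower in G3SEKO Zbtb16+ cells, with Inpp4b (rank 90 from the lowest ratio) and Ptpn13 (rank 13) among them and none of the 4 relatives measured at that level. In both experiments, 75 of 9635 genes passed this count, which has no test (0.778%), and Inpp4b was the only one of the 5 members measured at that level that was among them (Ptpn13 and Inppl1 were below the level).

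In the Icos+ Zbtb16-low gate Inpp4b was 6.82-fold lower and Ptpn13 8.59-fold lower in G3SEKO cells of experiment 2, and experiment 1, with 7 G3SEKO cells, gave 54.3-fold for Inpp4b (2 reads were added to each pair of sums). The 3 Ptpn13 reads of those 7 cells gave a ratio of 139.7 (95% Poisson interval 47.8 to 678). Cells with marker genes of other lymphocyte lineages made up 22.6% of WT and 71.4% of G3SEKO cells of this gate in experiment 1, and 11% and 47.5% in experiment 2. The 5 markers of the LTi and ILC3 lineages, of which 4 had reads and Il22 had none, summed to 144 and 104 CPM in WT and to 1294 and 471 CPM in G3SEKO cells of experiments 1 and 2. With the cells of other lineages left out, experiment 2 gave 658.6 CPM (WT) and 97.0 CPM (G3SEKO) of Inpp4b, and 140.0 and 19.4 CPM of Ptpn13. edgeR called 0 of 16637 genes in this gate (0%), with 327 below an unadjusted p of 0.05, DESeq2 called 55, and the median log2 change of all genes tested was -0.24. Inpp4b and Ptpn13, which the study chose on their course toward ILC2s and on their genotype difference in ILC2s, are not given a p in this gate. None of the 5 relatives was called by DESeq2 in this gate. By the 2-fold count, 1.98% of 9619 genes were lower in both experiments, among them Inpp4b and Ptpn13 and none of the 4 other members measured at that level. In the triple-low gate, 2.16% of 9591 genes were lower in both experiments, again with Inpp4b and Ptpn13, and 2.36% were higher, with Ptpn6 as the only member. Cells with marker genes of other lymphocyte lineages made up 33.3% of WT and 42.9% of G3SEKO cells of that gate in experiment 1. In experiment 2 they made up 9.13% and 40.4%. With them left out, experiment 2 gave 1035 CPM (WT) and 80.0 CPM (G3SEKO) of Inpp4b, and 180 and 17.2 CPM of Ptpn13. In the ST2+ gate the genotype could not be fitted by itself, because experiment 1 held only 2 G3SEKO cells. An edgeR fit over all gates called 0 of 21273 genes for genotype there, with 1557 below an unadjusted p of 0.05. There, 14.1% of 9454 genes were at least 2-fold lower in experiment 2 and 14.8% at least 2-fold higher, so a 2-fold difference was common. Of the 7 members, Inpp4b and Ptpn13 were at least 2-fold lower and 0 were 2-fold higher, and Inpp4b ranked 216th and Ptpn13 30th from the lowest ratio. The study had chosen both genes for a lower level in G3SEKO ILC2s of these cells. Their places here were thus built into that choice and are no test against the 5 relatives.

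The levels were then followed by the Gata3 and Il18r1 levels of the cells themselves. IL-18Rα marks ILCPs and both early and late committed precursors and is lower on bone marrow ILC2s. In WT ST2+ cells of experiment 2, Inpp4b stood at 1095, 1086 and 1129 CPM in cells with a Gata3 level under 1, of 1 to under 2, and of at least 2. In experiment 1 the 3 values were 740.4, 616 and 662 CPM. The log2 ratio of the highest to the lowest bin was -0.16 in experiment 1 and 0.04 in experiment 2, so WT ILC2s with few and with many Gata3 reads had similar levels of Inpp4b. Ptpn13 gave 199, 186 and 222 CPM in the 3 bins of experiment 2. Its values in experiment 1 were 255, 79.8 and 154 CPM, where the lowest bin had 33 cells, and its ratios went opposite ways (-0.73 and 0.15).

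Both genotypes had cells in the lowest Gata3 bin. Among ST2+ cells of experiment 2 with Gata3 under 1, Inpp4b was at 1095 CPM in 839 WT cells and 227 CPM in 28 G3SEKO cells, with 40.2% of the G3SEKO reads from 1 cell. In the middle and highest bins the G3SEKO levels were 61.1 CPM (15 cells) and 6.24 CPM (7 cells). Ptpn13 was at 199 CPM and 0 reads in the cells of the lowest bin. Gata3 was not equal between them, with 52.9 CPM (WT) and 37.8 CPM (G3SEKO) in the bin and a Gata3 read in 54.7% and 28.6% of the cells. The part of missed Gata3 reads in this split was not tested.

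WT ST2+ cells were also split by Il18r1. Those with Il18r1 of at least 1 held 322 CPM (58 cells, experiment 1) and 604 CPM (190 cells, experiment 2) of Inpp4b, and those under 1 held 732 and 1149 CPM. For Ptpn13 the values were 85.8 and 124 CPM against 162 and 215 CPM. Both genes were thus lower in the Il18r1-high ST2+ cells in 2 of 2 experiments. In the G3SEKO ST2+ gate of experiment 2, 37 of 50 cells were Il18r1-high, and they held 125 CPM of Inpp4b, against 604 CPM in Il18r1-high WT cells, a 4.83-fold difference.

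The same split was made in the Icos+ Zbtb16-low gate. WT cells of experiment 2 with Il18r1 under 1 (448 cells) held 819 CPM of Inpp4b, and those at or above 1 (126 cells) held 162 CPM. Of the G3SEKO cells, 283 of 345 were Il18r1-high, with 79.4 CPM. Between the Il18r1-high cells alone Inpp4b differed 2.03-fold and Ptpn13 2.99-fold (49.6 and 16.6 CPM), in place of 6.82-fold and 8.59-fold for the whole gate. In the cells with Il18r1 under 1 (62 G3SEKO cells), Inpp4b was at 132 CPM in G3SEKO, a 6.20-fold difference, and Ptpn13 was at 166 and 1.40 CPM, a 118-fold difference. The genotypes were thus closer in the Il18r1-high cells and far apart in the Il18r1-low cells.

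When cells outside the ST2+ gate were limited to Il18r1 of at least 1 with Il1rl1 and Il2ra under 0.5, a stricter precursor gate chosen after seeing the data, the Zbtb16+ difference of experiment 2 was no longer seen. Inpp4b was at 36.4 CPM in 139 WT cells and 39.5 CPM in 266 G3SEKO cells. Ptpn13 was at 4.39 and 3.44 CPM in the same cells. In experiment 1 the WT sum stayed higher for Inpp4b (37.0 CPM in 73 cells against 9.72 CPM in 15 cells), whereas Ptpn13 was at 0.880 and 0.980 CPM. In the Icos+ Zbtb16-low gate the strict limits left 132 and 87.7 CPM of Inpp4b in WT and G3SEKO cells of experiment 2 (92 of 574 and 234 of 345 cells, or 16.0% and 67.8%), and 29.1 and 19.2 CPM of Ptpn13. In experiment 1 they left 59.5 CPM in 40 WT cells and 3.63 CPM in 6 G3SEKO cells for Inpp4b, and 50.7 CPM and 0.259 CPM, a single read, for Ptpn13.

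**Figure D3:**
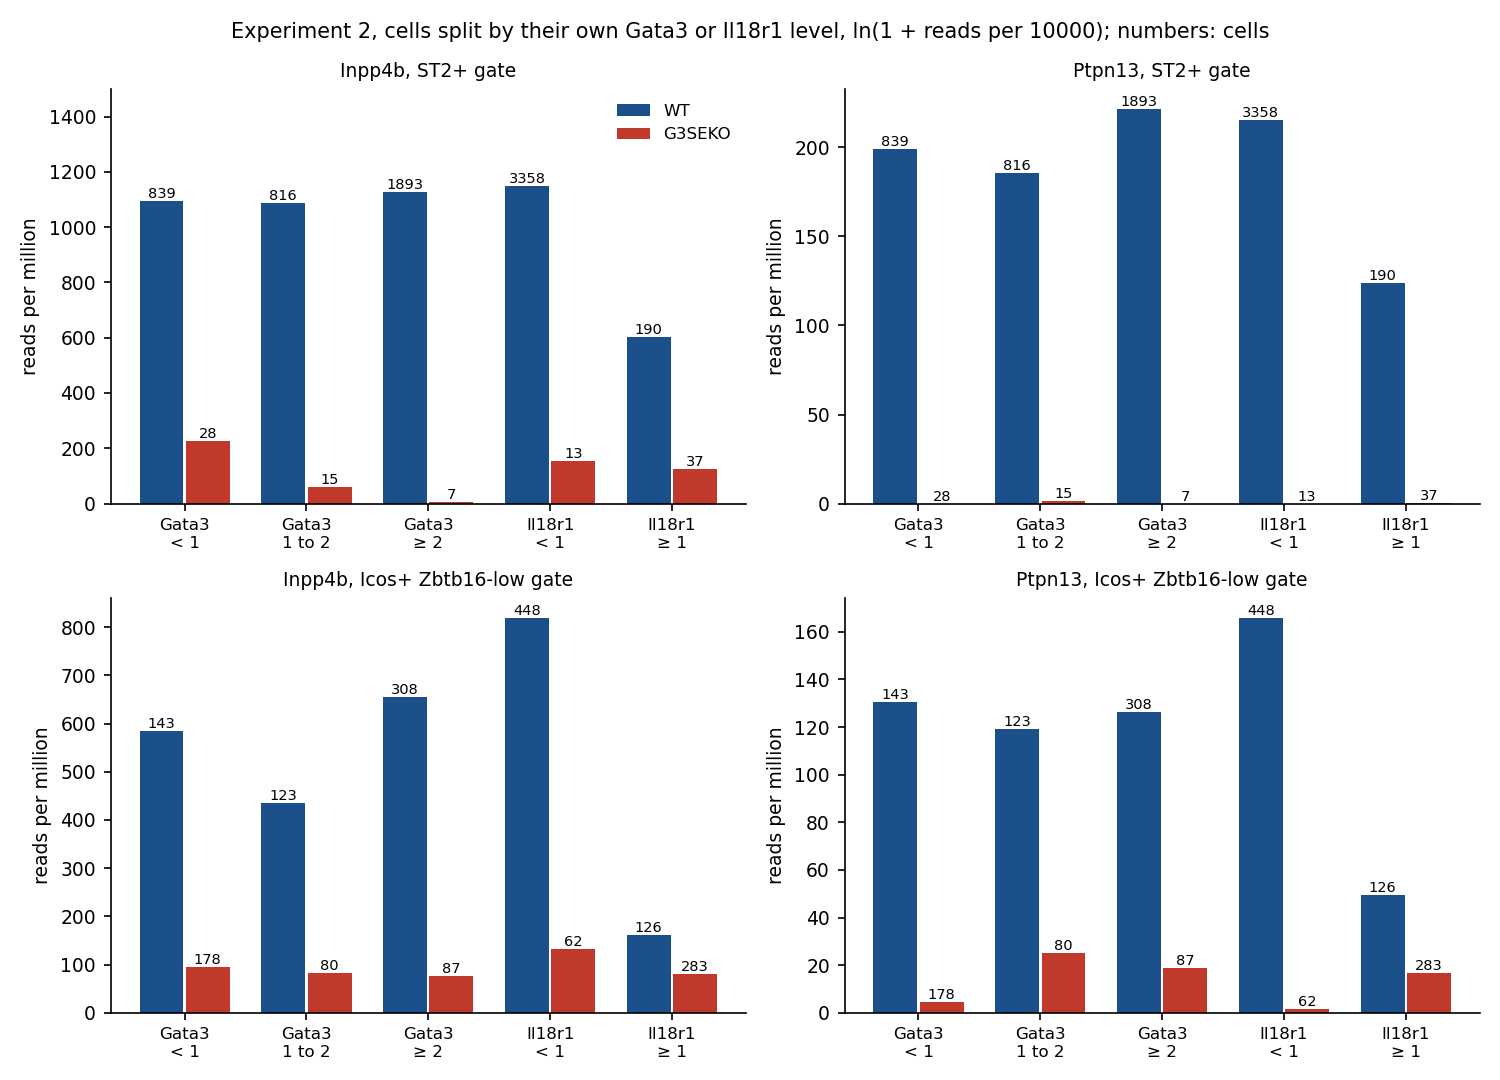
CPM of Inpp4b (left) and Ptpn13 (right) in experiment 2, in ST2+ cells (top) and Icos+ Zbtb16-low cells (bottom) split by their own Gata3 level or, separately, by their Il18r1 level on the ln(1 + reads per 10000) scale; blue bars are WT, red bars G3SEKO, and the number over a bar is its cells. WT bars are level across the Gata3 bins of the ST2+ gate and lower at high Il18r1, and the genotypes are closest in Il18r1-high Icos+ Zbtb16-low cells (162 and 79.4 CPM of Inpp4b).

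Cells with marker genes of other lymphocyte lineages at 1 or above, Cd3e, Tbx21 and Eomes among them, were also looked at outside the ST2+ gate. In cells with Tbx21 or Eomes, genes of the NK and ILC1 lineages, the 2 experiments went opposite ways for Inpp4b, with 55.2 and 109 CPM in WT and 105 and 24.8 CPM in G3SEKO cells. The G3SEKO value of experiment 1 came from 6 cells, 1 of which gave 86.6% of the reads. After all cells with marker genes of other lineages were left out, the log2 ratio in the Zbtb16+ gate was -2.23 for Inpp4b and -1.41 for Ptpn13, in place of -1.67 and -2.11.

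Inpp4a, the paralog of Inpp4b with the same activity on PI(3,4)P2, did not rise with it over the WT gates and did not follow its genotype difference in experiment 2. In WT cells it stood at 20.6, 18.3, 28.1 and 19.7 CPM in the Zbtb16+, Icos+ Zbtb16-low, triple-low and ST2+ gates of experiment 1, and the same gates of experiment 2 gave 26.6, 22.0, 27.1 and 22.6 CPM. In G3SEKO cells of experiment 2 the levels were 26.7, 31.7, 32.7 and 22.2 CPM, which were 0.985 to 1.44 times the WT levels. In experiment 1 they were 8.65, 46.9, 57.2 and 1.48 CPM, but 1 cell gave 89.0% and 93.8% of the Icos+ and triple-low reads and the ST2+ value was 2 reads. In the Zbtb16+ gate of experiment 1 the WT level of Inpp4a was 2.38 times the G3SEKO level, the same direction as Inpp4b (3.63 times). The log2 difference between genotypes was -0.58 ± 0.68 in the Zbtb16+ gate and 0.98 ± 1.0 in the Icos+ Zbtb16-low gate (log2, SE; adjusted p = 1.0 for both with edgeR).

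Inpp5d, which encodes the upstream 5-phosphatase SHIP-1, was present in all gates. WT levels were 137, 125, 94.9 and 152 CPM in experiment 1 and 202, 171, 185 and 192 CPM in experiment 2. G3SEKO levels of experiment 2 were 237, 208, 223 and 143 CPM, so that they lay slightly above WT in 3 gates and below it in ST2+ cells. After thinning, 24.4% of WT and 28.0% of G3SEKO ST2+ cells of experiment 2 held a read (intervals 23.0 to 25.8% and 16.2 to 42.5%). In experiment 1 the G3SEKO values were 205, 32.5, 25.5 and 13.3 CPM, and 1 cell gave 84.1% or more of the reads in each of the last 3. The difference in the Zbtb16+ gate was 0.45 ± 0.21 (log2, SE; adjusted p = 1.0 with edgeR).

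Inppl1, the gene of SHIP-2, was barely detected. In WT ST2+ cells it was at 13.6 and 10.5 CPM in experiments 1 and 2, and 2.36% and 2.28% of the cells held a read after thinning. In WT Zbtb16+ cells it was at 0.434 and 3.22 CPM, with 97.1% and 95.7% of the reads from 1 cell. In G3SEKO cells, at most 8 cells of any gate and experiment held a read, and the 14.8 CPM of the ST2+ gate of experiment 2 came from 1 cell of 50. In G3SEKO Zbtb16+ cells it was at 0.131 CPM (2 reads) and 1.47 CPM in experiments 1 and 2, with 97.4% of the latter reads from 1 cell. In the Icos+ Zbtb16-low gate of experiment 2 it was at 6.36 CPM in 574 WT cells and at 1.32 CPM in 345 G3SEKO cells, with 96.4% of the G3SEKO reads from 1 cell. In experiment 1 that gate held no G3SEKO read, and 96.5% of its 201 WT reads came from 1 cell, so no fold is given. The fitted log2 differences were -1.35 ± 1.04 in the Zbtb16+ gate and -3.91 ± 2.17 in the Icos+ Zbtb16-low gate, the latter dependent on the prior count added to the sum without a read (SE; adjusted p = 1.0 for both with edgeR), so neither passed the test on these few cells.

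Ptpn6, the gene of SHP-1, stood higher in the G3SEKO sums. WT levels were 125 and 102 CPM in Zbtb16+ cells, 70.5 and 80.1 CPM in Icos+ Zbtb16-low cells, 159.7 and 75.3 CPM in triple-low cells and 51.0 and 52.0 CPM in ST2+ cells of experiments 1 and 2. G3SEKO levels were 127 and 121 CPM (Zbtb16+), 269.8 and 118 CPM (Icos+ Zbtb16-low), 326 and 156 CPM (triple-low) and 321 and 67.8 CPM (ST2+). Each G3SEKO value was higher than its WT value, by 0.03 to 2.65 on the log2 scale, and the largest ratios rested on experiment 1, where 81.1% and 94.0% of the Icos+ and ST2+ reads came from 1 cell.

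Ptpn6 was also read in other groupings of the cells, and a cause of its differences was not tested. In Il18r1-high Icos+ Zbtb16-low cells of experiment 2 the levels were 112 CPM in WT and 111 CPM in G3SEKO. In cells with Tbx21 or Eomes, Ptpn6 was at 116 and 71.4 CPM in WT and 364 and 247 CPM in G3SEKO cells. The 364 CPM came from 6 cells, 1 of which gave 55.7% of the reads. Without cells of other lineages the mean log2 ratio was -0.16 in the ST2+ gate (1.52 with them) and 0.70 in the triple-low gate (1.04 with them). In neither precursor gate did Ptpn6 pass the edgeR test (log2 change 0.17 ± 0.22 in Zbtb16+ cells and 1.29 ± 0.52 in Icos+ Zbtb16-low cells, SE; adjusted p = 1.0 for both). In the Icos+ Zbtb16-low gate the log2 difference was 0.03 ± 0.79 after thinning and 0.48 ± 0.68 in the strict gate.

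Ptpn22 had the highest ratio of G3SEKO to WT among the 5 relatives in the ST2+ gate of experiment 2. Its WT levels were 80.2, 61.8, 115 and 62.0 CPM in the Zbtb16+, Icos+ Zbtb16-low, triple-low and ST2+ gates of experiment 1, and 75.6, 52.8, 75.5 and 74.9 CPM in experiment 2. The G3SEKO levels were 30.0, 25.2, 77.9 and 161 CPM, and 62.0, 100.8, 104 and 148 CPM. In the ST2+ gate of experiment 2 G3SEKO cells thus held 1.98 times the WT level, with 26.3% of the reads from 1 cell, and 22.0% of them (11.5 to 36%) against 13.6% of WT cells (12.4 to 14.7%) held a read after thinning, so that the intervals overlapped. In the Zbtb16+ gate the difference ran the other way, by -0.81 ± 0.41 (log2, SE; adjusted p = 1.0 with edgeR). In Il18r1-high ST2+ cells of experiment 2 the levels were 97.4 and 149 CPM.

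**Figure D4:**
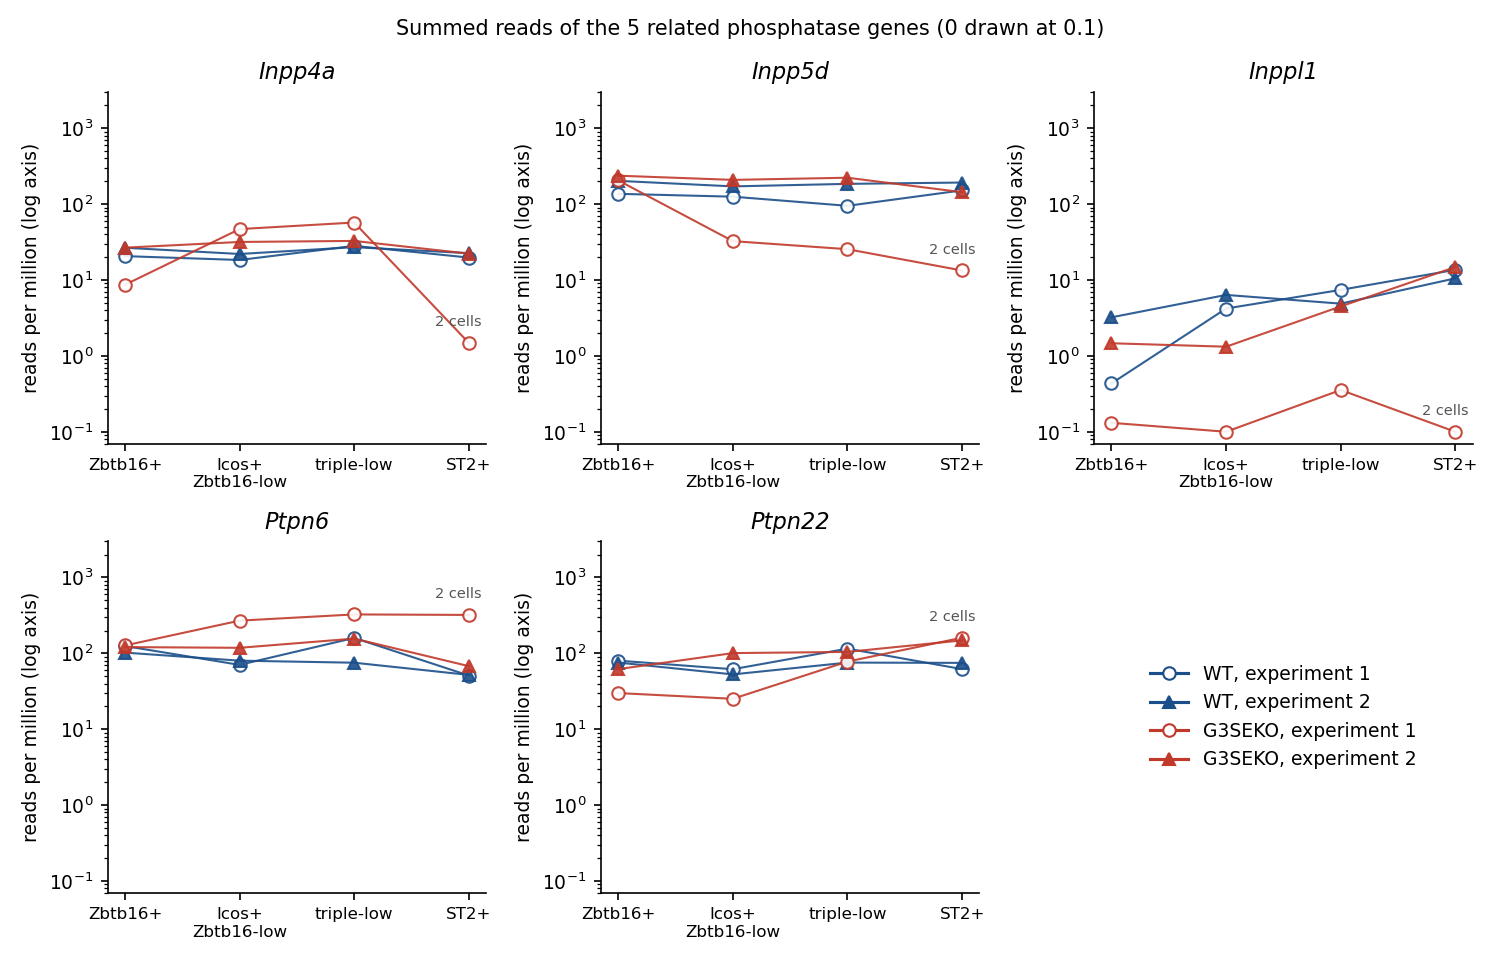
CPM of summed reads, on a log axis, of Inpp4a, Inpp5d, Inppl1, Ptpn6 and Ptpn22 in the 4 gates; symbols as in the plot of Inpp4b and Ptpn13, and 0 is drawn at 0.1. In experiment 2 (filled triangles) the genotypes lie close together for Inpp4a and Inpp5d, Ptpn6 is lower in WT ST2+ cells than in WT Zbtb16+ cells, and the scattered G3SEKO values of experiment 1 (open red circles) rest on 2 to 20 cells.

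In WT development from Zbtb16+ to ST2+ cells, edgeR called 689 of 21000 genes (3.28%), 277 of them higher (1.32%) and 412 lower (1.96%). None of the 5 relatives was among them. Ptpn6 fell short of the threshold at a log2 change of -1.07 ± 0.20 (SE; adjusted p = 0.0708 with edgeR), lower in 2 of 2 experiments, and passed with DESeq2 (adjusted p = 1.6e-04), after thinning (adjusted p = 0.034 with edgeR) and in the strict gate (0.045). Inppl1 had the largest log2 change among the 5, 3.39 ± 1.03 (adjusted p = 0.186 with edgeR), and passed with DESeq2 (1.7e-04) and with edgeR after thinning (0.0083) and without cells of other lineages (0.035), on the few cells given above. Inpp4a (-0.09 ± 0.31), Inpp5d (0.10 ± 0.15) and Ptpn22 (-0.13 ± 0.21) differed by less than their standard errors (adjusted p = 0.944, 0.830 and 0.847 with edgeR). The median log2 change over all genes was 0.08.

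The wider pathway was read from 6 gene lists. Inpp4b and Ptpn13 were left out of the counts in this WT comparison, since the study had chosen them on it. Of 28 other phosphoinositide phosphatases tested, 0 were called higher and 0 lower with edgeR, with a median log2 change of 0.03. At an unadjusted p of 0.05, 5 of them passed, beside 3770 of all 21000 genes. Of 25 other protein tyrosine phosphatases, 1 was higher and 1 lower (median 0.10). Ptpn18 rose from 148 and 124 CPM to 505 and 289.8 CPM (log2 change 1.57, adjusted p = 0.0266 with edgeR), and Ptpre fell from 281 and 228 CPM to 106 and 100.9 CPM (-1.23, adjusted p = 0.0370 with edgeR).

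Upstream of the phosphatases, 0 of 14 PI3K subunits and adaptors were called. Among 30 Akt, mTOR and phosphoinositide readers, 1 was higher and 3 were lower. Plcg1, a phospholipase C that cleaves PI(4,5)P2, rose (log2 change 1.57), whereas its relative Plcg2 (-1.79), the adaptor Dapp1 (-1.5) and the kinase Sgk3 (-1.85) fell (adjusted p = 0.0485, 0.0372, 0.0253 and 0.0402 with edgeR). The fall of Plcg2 was from 67.4 and 86.6 CPM to 16.7 and 26.7 CPM.

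Of 16 partners of SHIP-1, SHP-1 and PTPN22, 2 rose and 1 fell. Zap70, a kinase of antigen receptor signalling and a PTPN22 substrate, rose from 3.38 and 6.51 CPM to 34.4 and 66.7 CPM, and Pag1, an adaptor that brings the kinase Csk to the membrane, from 15.1 and 29.0 CPM to 82.0 and 83.8 CPM. Lck, a Src-family kinase, fell from 152 and 211 CPM to 36.1 and 47.2 CPM (adjusted p = 0.0177, 0.0427 and 0.0155 with edgeR). Of 10 FOXO1 target genes 2 fell, among them the chemokine receptor gene Ccr7 (-5.73 on the log2 scale, adjusted p = 0.0373 with edgeR), and 0 rose. The median log2 change of this list was 0.30 (all genes, 0.08). At an unadjusted p of 0.05 with edgeR, 2 of its genes were higher and 3 lower. Cells with marker genes of other lymphocyte lineages made up 22.4% and 23.5% of WT Zbtb16+ cells and 7.08% and 3.04% of WT ST2+ cells. Without them, 10 of the 11 list genes called were called again and all 11 had the same sign, and the exception was Plcg1 (1.43, adjusted p = 0.0541 with edgeR). Between genotypes, 0 genes of the 6 lists were called in the Zbtb16+ or the Icos+ Zbtb16-low gate with edgeR, with list medians of -0.10 to 0.08 (all genes, -0.05) and -0.32 to 0.05 (all genes, -0.24).

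Last, the genes most like Inpp4b and Ptpn13 were sought over 15 sums of gate, genotype and experiment, centred within each experiment, among 7854 genes at a mean of at least 20 CPM. For Inpp4b these were Il6st, which encodes the shared receptor chain gp130 (r = 0.966), Gfi1, a transcriptional repressor needed for ILC2s (0.962), Gm8623 (0.954), Ivns1abp (0.944) and Rpl8 (0.939). For Ptpn13 they were Il9r, the IL-9 receptor (0.974), Rnf128 (0.968), Denn2b (0.964), Pcsk1 (0.961) and Lpcat2 (0.955). The candidate Slc7a8 came next for Ptpn13 (0.950, rank 6), and Inpp4b and Ptpn13 correlated at 0.845. Against Ptpn6 both were negative (-0.62 and -0.64). These r values describe sums that share libraries and differ in cells and depth, and no p is given.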

How the data were processed

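Bone marrow αLPs were profiled with TAS-Seq (RNA sequencing of single cells) in 2 experiments with WT and G3SEKO cells marked by hashtag antibodies. The authors aligned reads with Bowtie2 to GRCm38, and the deposited tables hold whole-number read counts per gene and cell, not normalized and without molecular identifiers. The authors called hashtags and removed doublets; no doublet caller was run. No columns of other series were found, and 2 and 100 cells without 1 hashtag in their name were left out of experiments 1 and 2. Total reads kept were 348926728 (WT) and 31047309 (G3SEKO) in experiment 1 and 210274209 and 66407190 in experiment 2.

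The cells of a genotype, gate and experiment were summed into 1 sample (at least 5 cells for a test). Sums were tested with edgeR 4.0.16 (R 4.3.3; quasi-likelihood, TMM, filterByExpr, experiment as a term, Benjamini-Hochberg over all genes), with DESeq2 1.42.0 as an alternative, and the fits were tested on simulated data. Log2 ratios had 2 reads added. No p is given for Inpp4b or Ptpn13 along WT development or between genotypes in the Icos+ Zbtb16-low and ST2+ gates, and the list counts of WT development leave them out. The members and gene lists were chosen with earlier results of these data known. Named genes were the 7 members, the study's candidates, list genes called (at most 8 per list and comparison) and the 5 genes most correlated with Inpp4b and with Ptpn13. The triple-low gate, the strict gate, the Icos+ split and the lineage-gene cells were added after seeing the data. Alternatives were other gate limits, no Id2 limit, thinning to the lowest depth allowed in experiment 2, no filter, leaving out cells of other lineages or with Mki67 or Top2a, means over cells, no experiment term and each experiment alone. Positions and promoter sequences were from GENCODE M21 and RefSeq. Some genes of the lists and markers are not reported here.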

Additional observations from a re-analysis of the deposited data

How the results depend on the processing

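As a mean over experiments, Inpp4b and Ptpn13 were lower in G3SEKO cells under all 12 alternatives in the Zbtb16+, Icos+ Zbtb16-low and triple-low gates and all 11 in the ST2+ gate, where a gate limit of 1.5 left no G3SEKO cells in experiment 1. In single experiments Ptpn13 was higher in G3SEKO cells of the strict triple-low gate of experiment 2 (8.79 CPM in WT, 19.9 CPM in G3SEKO), and in Zbtb16+ cells of experiment 1 in the strict gate (0.880 and 0.980 CPM) and without cells of other lineages (1.20 and 1.23 CPM), and Inpp4b in the strict Zbtb16+ gate of experiment 2 (36.4 and 39.5 CPM). The log2 ratio of Inpp4b in the Zbtb16+ gate was -2.50 after thinning, -2.23 without cells of other lineages, -2.07 as a mean over cells and -0.90 in the strict gate, and that of Ptpn13 was -1.41 without cells of other lineages and -0.10 in the strict gate. Inpp4b in the Icos+ Zbtb16-low gate was -6.94 without cells of other lineages, a mean that is no bound, since the 2 G3SEKO cells left in experiment 1 held no Inpp4b read (experiment 2 gave 658.6 CPM in WT and 97.0 CPM in G3SEKO). Ptpn13 in WT ST2+ against Zbtb16+ cells was 6.47 in the strict gate, and its Il18r1 ratio in WT ST2+ cells was -1.03 after thinning. Each experiment alone gave -1.85 to -1.48 (Zbtb16+), -5.76 to -2.77 (Icos+ Zbtb16-low) and -7.21 to -3.10 (ST2+) for Inpp4b.

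The 689 genes called in WT development became 2714 with DESeq2, 1664 after thinning, 1055 in the strict gate, 1049 without a filter and 355 at a gate limit of 1.5. Without the replicate block, that is without pairing by experiment, 330 genes were called. The 0 genes called for genotype became 55 (Icos+ Zbtb16-low) and 20 (Zbtb16+) with DESeq2, 43 and 3 after thinning, and 32 in Icos+ Zbtb16-low cells without a filter. Ptpn22 in that gate turned to 0.10 without the block, 0.64 after thinning and 0.52 at a gate limit of 1.5. A gate limit of 1.5 also turned Inpp4a (-0.50) and Inpp5d (0.73) there, Inpp5d (-0.18) and Ptpn6 (-0.22) in Zbtb16+ cells, and Ptpn22 (0.019) in WT development. Inpp4a turned to -0.27 in the strict Icos+ Zbtb16-low gate, and to 0.058 in WT development at a gate limit of 0.5. Ptpn6 turned to -0.094 in Zbtb16+ cells without cells of other lineages, and Ptpn22 to 0.013 in WT development with no Id2 limit. With 1 experiment left out, Inpp4a ranged from -1.25 to 0.0036 in Zbtb16+ cells, Inpp5d from -1.94 to 0.28 and Ptpn22 from -1.29 to 0.93 in Icos+ Zbtb16-low cells, and Inpp5d from -0.074 to 0.15 in WT development. The cause of these moves was not tested.

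The planned fits of genotype in the ST2+ gate and of its difference between gates could not be made with 2 G3SEKO cells in experiment 1. A fit over all gates, which borrows the spread of the others, called 0 of 21273 genes in the ST2+ gate, with 1557 below an unadjusted p of 0.05. Without cells of other lineages, the Icos+ Zbtb16-low gate could not be fitted (2 G3SEKO cells in experiment 1). The 43 and 1159 G3SEKO cells limit every genotype value.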
